A study of Mus musculus with 33 samples.

Results

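Induced osteoblasts made from mouse tail fibroblasts were set against osteoblast cultures from the skull vault, in 6 RNA libraries of the 33 samples of the series. The 6 were taken by their labels and not by any measured value: 3 libraries labelled iOB and 3 labelled calvarial-OB. All 17982 genes of the deposited count table entered, and the 13260 with enough counts were tested.

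The iOB began as fibroblasts grown out of tail tips of Col2.3GFP mice, which carry green fluorescent protein under a fragment of the type I collagen promoter, a reporter of osteoblast-lineage cells. Fibroblasts were passaged and frozen, then given lentivirus carrying transcription factor genes that the labels do not name. The virus was taken off after 24 hours, with a split of the cells on day 3 and a change to osteogenic medium on day 5. The labels leave out when they were harvested. The calvarial-OB libraries are labelled as calvarial progenitor cells in osteoblast differentiation; their strain, animal age, medium, time in culture and GFP status are not given. No sort is described for either culture, and fibroblasts given an empty virus or medium alone are not analysed here. The titles mark the 3 calvarial-OB libraries, and no iOB library, as dataset 2, so everything that sets that dataset apart cannot be told apart from the cell type in any difference described here. Nothing in the labels says that replicates were separate cultures, so the p-values measure the spread between these libraries, which may be technical. Levels in the 3 libraries of untreated tail fibroblasts in the same table, the cells from which iOB were made, are given for some genes as a description.

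Osteoblasts are the cells that lay down bone. They secrete a matrix rich in type I collagen, mineralize it with the help of a surface phosphatase, and some become osteocytes embedded in the matrix. The transcription factor RUNX2 opens this program, and SP7 (osterix) acts after it. Most of the skull vault arises from neural crest and cranial mesoderm that do not use the Hox code, whereas tail tissue arises from trunk mesoderm that does.

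The differences between the cultures were broad. The iOB libraries held 5646299 to 8187715 counts and the calvarial-OB libraries 8219411 to 15023771. Correlations of log2 CPM (counts per 1000000 on scaled library sizes) across genes were 0.983 to 0.988 among iOB libraries, 0.965 to 0.984 among calvarial-OB libraries and 0.839 to 0.870 between the groups. Calvarial-OB replicate 1 stood apart from the other two of its group, so results that change without it are given without it too. Of the tested genes 5816 (43.9%) were called at an edgeR adjusted p below 0.05, 2977 (22.5%) higher in iOB and 2839 (21.4%) lower. At least 2-fold differences made up 1283 (9.68%) and 1249 (9.42%) of the tested genes. For 55.7% of genes every library of one culture lay above every library of the other, 28.3% with iOB above and 27.4% with iOB below. Every count of a gene list below is read against these shares. A tested gene below the filter's level in every library of one culture passed through the other culture alone. The filter then fixed its direction, and its call is no support. Only some of these genes are pointed out below. Fold changes are log2 differences, iOB minus calvarial-OB, with the standard error (SE) of the edgeR fit after the ± sign.

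**Figure D1:**
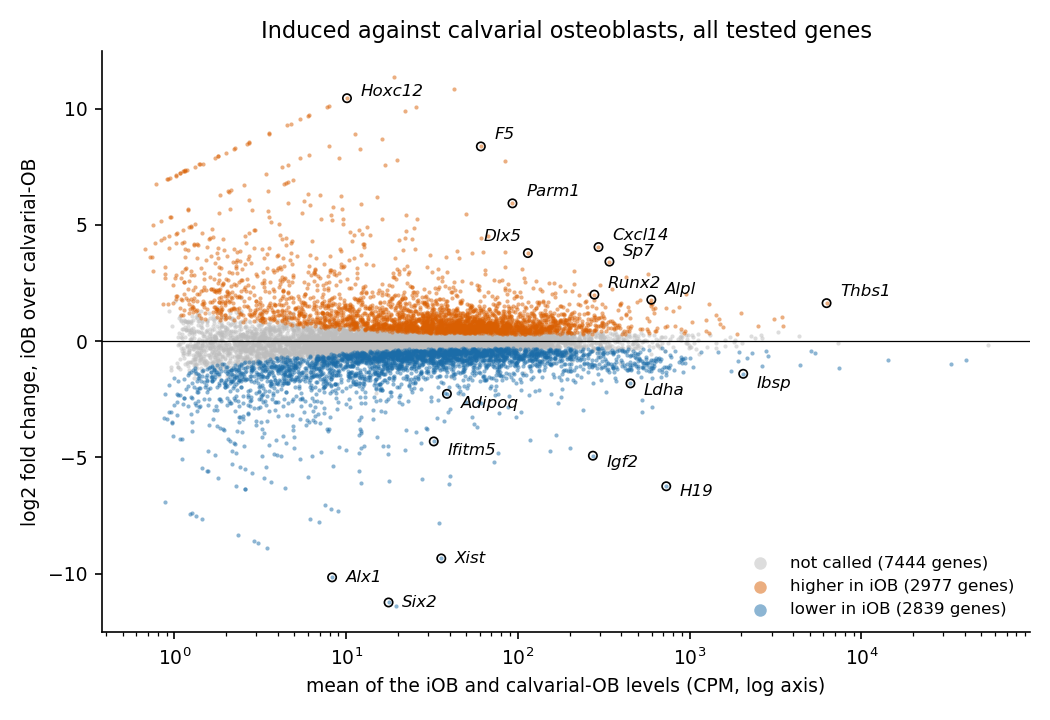
Each dot is one of the 13260 tested genes, with the mean of the iOB and calvarial-OB levels (CPM, log axis) across and the log2 fold change of iOB over calvarial-OB up. The 2977 genes called higher (orange) and 2839 called lower (blue) lie on both sides of 0 at all levels, and the diagonal rows of dots at the far top and bottom are genes with 0 or few counts in one culture, whose fitted fold change is not a bound.

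Fold changes followed the length of genes. Gene spans (start to end of the gene, introns included) came from the RefSeq table for 13210 of the tested genes. When these were put in 10 bins by span, the bin with the shortest genes (median 2909 bp) held 113 higher and 541 lower in iOB, and its median log2 fold change was -0.43. In the bin with the longest span, median 205528 bp, 606 were higher and 167 lower, with a median of 0.38. The medians rose in every bin between. The trend runs with dataset 2 as much as with cell type, and its origin was not tested. A fit with a smooth offset for gene span in each library, added after the trend was seen, called 2664 genes higher and 2574 lower. It kept 4494 of the 5816 calls, and in 29 called genes the sign changed, of which none was called in the other direction. Among the genes named below, those whose call depends on it are marked as such.

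**Figure D2:**
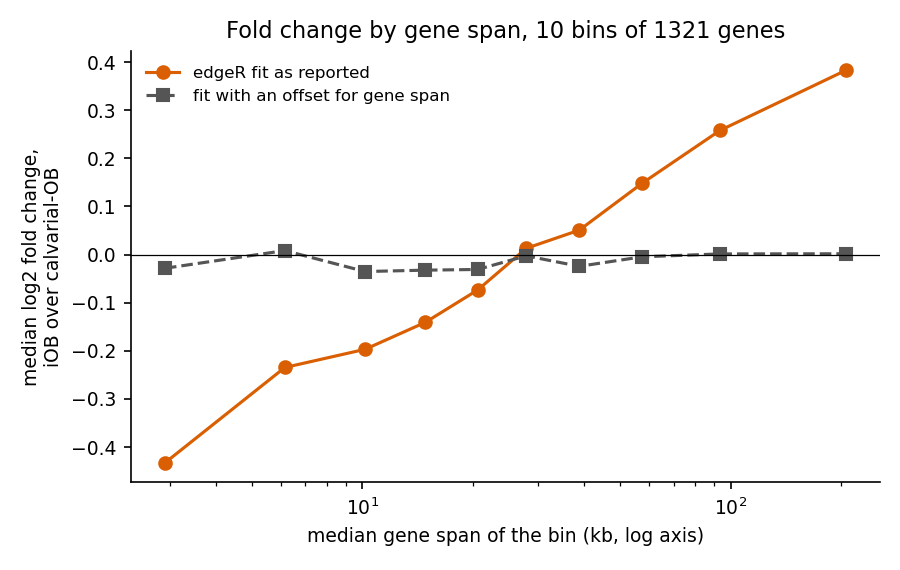
The 13210 genes with a known span are in 10 bins of 1321, placed at their median span (kilobases, log axis), with the median log2 fold change of iOB over calvarial-OB up. Circles are the edgeR fit as reported and climb from -0.43 to 0.38; squares are the fit with an offset for gene span and stay near 0.

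Regulators that open the osteoblast program were higher in iOB. Sp7 stood at 745, 535 and 591 CPM in iOB and 43.7, 84.6 and 47.5 CPM in calvarial-OB (log2 fold change 3.42 ± 0.26, edgeR adjusted p = 1.1e-05). Dlx5, a homeobox gene of early osteoblasts, stood at 190.2, 217 and 232 CPM in iOB and 15.6, 17.0 and 14.0 CPM in calvarial-OB (log2 fold change 3.78 ± 0.14, edgeR adjusted p = 2.5e-07). Runx2 stood at 447, 420.4 and 469 CPM in iOB and 119, 114 and 102 CPM in calvarial-OB (log2 fold change 1.99 ± 0.12, edgeR adjusted p = 2.6e-06). All 3 genes were higher in every iOB library than in any calvarial-OB library, and in fibroblasts Runx2 already stood at 65.2, 79.7 and 72.3 CPM, against 3.30, 4.38 and 3.16 CPM for Sp7. Should a delivered gene be among them, its transcripts would be counted under the same symbol, and vector and cell transcripts cannot be told apart. Atf4, a stress-response factor that also drives osteoblast genes, was not called (log2 fold change 0.39 ± 0.16, edgeR adjusted p = 0.076), but was called in the fit with the span offset (log2 fold change 0.80) and in a fit with the fibroblast libraries (0.39).

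Other osteoblast regulators were lower in iOB. Mef2c, a muscle and bone regulator upstream of Sost in osteocytes, stood at 19.5, 23.8 and 29.2 CPM in iOB and 137, 111 and 118 CPM in calvarial-OB (log2 fold change -2.34 ± 0.16, edgeR adjusted p = 6.7e-06). The homeobox genes Msx1 and Dlx3 fell by 1.96 and 1.39 in log2 terms (edgeR adjusted p = 0.0022 and 0.0047). Dlx6, the neighbour of Dlx5 in the genome, had 0.936, 0.237 and 0.169 CPM in iOB and 5.86, 3.16 and 4.16 CPM in calvarial-OB and fell by 3.29 (edgeR adjusted p = 7.8e-04; log2 fold change -4.31 without iOB replicate 1). Dlx5 and Dlx6 thus moved in opposite directions. Dlx6 passed the filter only through calvarial-OB, so it could only come out lower. Twist2, which holds RUNX2 back, rose by 1.17 (edgeR adjusted p = 0.0062). Of 24 tested osteoblast transcription factors 6 were higher and 10 lower, with a median log2 fold change of -0.32 beside -0.03 for all tested genes.

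Matrix and mineralization genes went both ways, 10 of 25 higher and 8 lower with a median of 0.10 (6 higher without iOB replicate 3). Alpl, the phosphatase that frees phosphate for mineral, stood at 1094, 783 and 899.8 CPM in iOB and 262, 342 and 207 CPM in calvarial-OB (log2 fold change 1.78 ± 0.19, edgeR adjusted p = 8.7e-05). The groups did not overlap, and fibroblasts had 36.4, 39.9 and 35.6 CPM. Mgp, an inhibitor of calcification, rose by 1.36 (edgeR adjusted p = 6.9e-05), Omd, a proteoglycan of bone matrix, by 1.01 (adjusted p = 7.8e-04), and Slc20a2, a phosphate transporter, by 1.13 (adjusted p = 3.0e-04).

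The lower matrix genes included several of the most abundant. Ibsp, which encodes bone sialoprotein, stood at 984, 1145 and 1232 CPM in iOB and 2674, 3231 and 3038 CPM in calvarial-OB (log2 fold change -1.41 ± 0.13, edgeR adjusted p = 3.5e-05), and fibroblasts had 1.94, 2.19 and 9.49 CPM. Each iOB library was thus far above fibroblasts and below every calvarial-OB library. Col1a2, a chain of type I collagen, stood at 25105, 20761 and 21172 CPM in iOB and 49130.1, 45335 and 36967 CPM in calvarial-OB (log2 fold change -0.97 ± 0.15, edgeR adjusted p = 6.0e-04), and the matrix glycoprotein gene Sparc fell by 0.80 (edgeR adjusted p = 6.1e-04). Col1a1, the other chain, stood at 33147, 27701 and 27840.2 CPM in iOB and 63285, 58063 and 34158 CPM in calvarial-OB (log2 fold change -0.81 ± 0.21, edgeR adjusted p = 0.012), a call that ended without iOB replicate 3 or without calvarial-OB replicate 2 (adjusted p = 0.051 in both; alternatives ranged over 2.6e-04 to 0.051). Phospho1 and Smpd3, a phosphatase and a sphingomyelinase needed to start mineral deposition, fell by 1.96 and 1.08 (edgeR adjusted p = 4.4e-04 and 0.0038). Spp1, which encodes osteopontin, overlapped between the groups at 415, 623 and 563 CPM in iOB and 608, 445 and 544 CPM in calvarial-OB (log2 fold change 0.00 ± 0.17, edgeR adjusted p = 0.98).

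Osteocalcin is encoded in mouse by near-identical genes whose reads the counting may have divided, so their single values are uncertain. Bglap stood at 1074, 918 and 1153 CPM in iOB and 723, 880.4 and 601 CPM in calvarial-OB and Bglap2 at 439, 364 and 455 CPM in iOB and 402, 467 and 327 CPM in calvarial-OB. Bglap was called higher (log2 fold change 0.51 ± 0.16, edgeR adjusted p = 0.023) but lost the call without iOB replicate 1 (0.50), iOB replicate 3 (0.44) or calvarial-OB replicate 3 (0.39) and in the fit of 9 libraries. Bglap2 was not called (log2 fold change 0.07 ± 0.15, edgeR adjusted p = 0.73), except with the span offset (log2 fold change 0.65). Bglap3, the copy also expressed outside bone, was far lower in iOB, at 2.65, 0.829 and 1.35 CPM in iOB and 25.7, 20.0 and 23 CPM in calvarial-OB (log2 fold change -3.86 ± 0.32, edgeR adjusted p = 1.8e-05). Fibroblast libraries had at most 3.93 CPM of any of the 3.

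**Figure D3:**
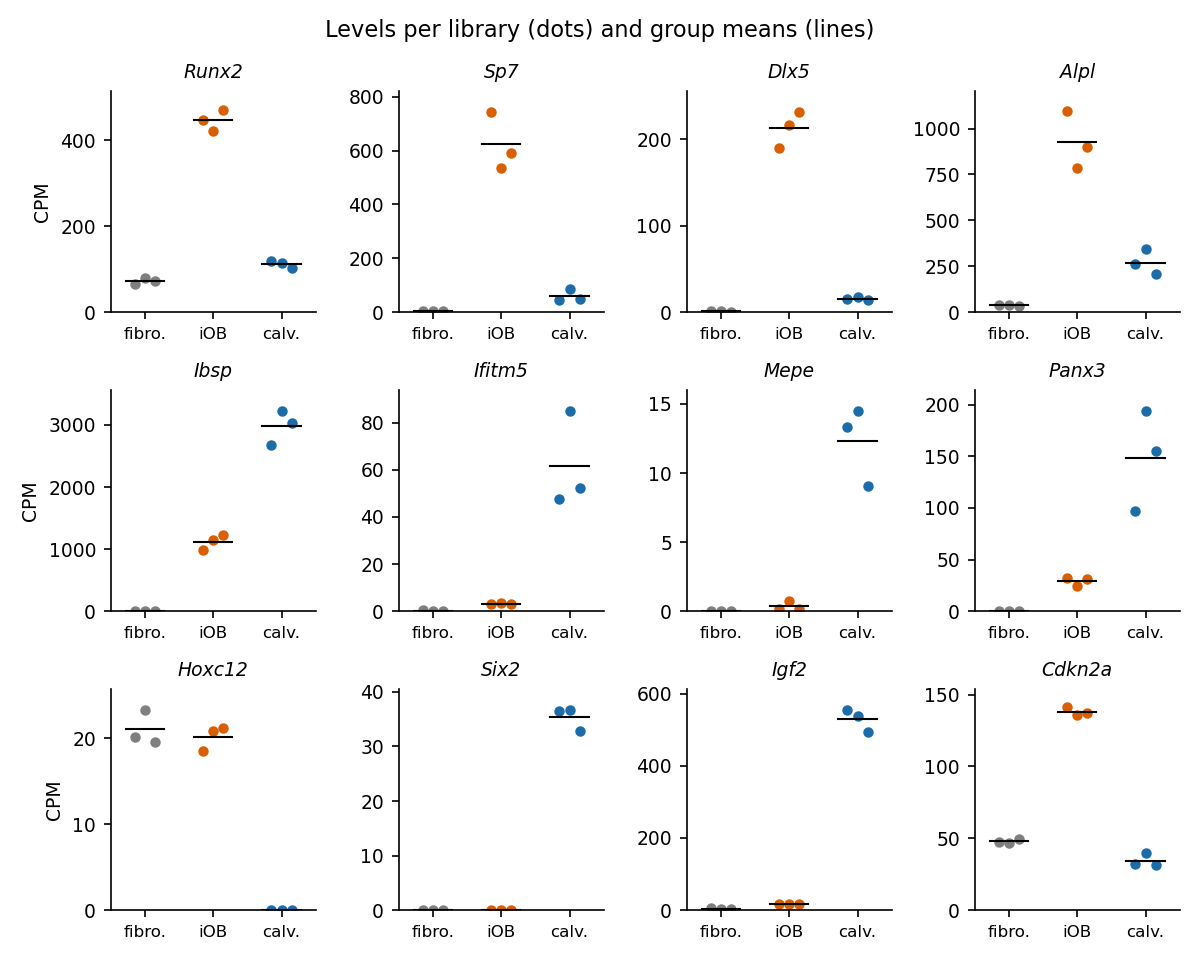
Levels (CPM, linear axes from 0) of 12 genes in each library of fibroblasts, iOB and calvarial-OB, with a line at the group mean. Runx2, Sp7, Dlx5, Alpl and Cdkn2a have all 3 iOB libraries above all calvarial-OB libraries, Ibsp, Ifitm5, Mepe, Panx3, Six2 and Igf2 have them below, and Hoxc12 is at 0 in calvarial-OB and Six2 at 0 in iOB.

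Genes of late osteoblasts and osteocytes held the widest gaps within the bone program. Ifitm5, a membrane protein of mineralizing osteoblasts, stood at 2.96, 3.31 and 2.87 CPM in iOB and 47.8, 85.1 and 52.1 CPM in calvarial-OB (log2 fold change -4.32 ± 0.27, edgeR adjusted p = 3.2e-06). Mepe, a matrix phosphoglycoprotein of osteocytes, stood at 0.156, 0.71 and 0.169 CPM in iOB and 13.3, 14.5 and 9.06 CPM in calvarial-OB (log2 fold change -4.95 ± 0.44, edgeR adjusted p = 2.7e-05; -6.11 without iOB replicate 2). Phex, a peptidase of osteocytes that limits phosphate loss, stood at 4.21, 12.4 and 8.43 CPM in iOB and 81.6, 68.3 and 60.0 CPM in calvarial-OB (log2 fold change -3.03 ± 0.30, edgeR adjusted p = 4.4e-05). In all 3 the highest iOB library lay below the lowest calvarial-OB library. Mepe passed the filter only through calvarial-OB, as did Dkk1 below. Their direction was fixed by it, and their adjusted p-values are no support. Panx3, a channel of maturing osteoblasts, stood at 32.0, 24.1 and 31.5 CPM in iOB and 96.9, 194 and 155 CPM in calvarial-OB (log2 fold change -2.35 ± 0.24, edgeR adjusted p = 6.0e-05), and Dkk1, a secreted Wnt inhibitor, at 0.78, 0.355 and 0.337 CPM in iOB and 8.36, 18.8 and 14.2 CPM in calvarial-OB (log2 fold change -4.80 ± 0.45, edgeR adjusted p = 3.7e-05).

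Sost encodes sclerostin, the Wnt inhibitor of mature osteocytes. It had 2 counts in the iOB libraries together and 398 in calvarial-OB (ratio of counts per library size 134, 95% interval 36.9 to 1112, counting error only). At 32.6, 6.06 and 5.97 CPM the calvarial-OB libraries were unequal, and the ratio was 62.4 without replicate 1 and 202 without replicate 3. Not every gene of this class was lower. Reln, which encodes the secreted protein reelin, had the largest rise of the list, at 8.11, 7.46 and 5.40 CPM in iOB and 0.125, 0 and 0.268 CPM in calvarial-OB (log2 fold change 5.34 ± 0.49, edgeR adjusted p = 3.5e-05; 6.46 without calvarial-OB replicate 3). Dmp1, a matrix protein of young osteocytes, stood at 17.2, 32.3 and 46.4 CPM in iOB and 20.1, 48.6 and 36.1 CPM in calvarial-OB and was not called (log2 fold change -0.13 ± 0.36, edgeR adjusted p = 0.79). Fam20c, the kinase that phosphorylates bone matrix proteins, and Tnfsf11, the osteoclast-inducing ligand RANKL, rose by 0.71 and 0.99 (edgeR adjusted p = 0.0022 and 0.0065), while Tnfrsf11b, the decoy receptor of that ligand, was not called (log2 fold change -0.14 ± 0.25, edgeR adjusted p = 0.68; adjusted p = 0.031 without calvarial-OB replicate 1, the lowest of 0.031 to 0.94 over all alternatives). Pdpn, a marker of early osteocytes, rose by 0.82 (edgeR adjusted p = 3.2e-04). Of 20 tested genes of the list 6 were higher and 10 lower, with a median of -0.53. Sost, like Mepe, passed the filter only through calvarial-OB, and Reln only through iOB. The filter thus fixed the directions of these members, and their part in the counts is no support.

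Promoters of 3 of these genes are printed to show what stands upstream of members that moved apart: Mepe and Ifitm5, lower in iOB, and Alpl, higher. Each line is the 250 bases before the RefSeq start site in GRCm38.p6, 5′ to 3′ on the gene's strand, at chr5:104325079-104325328 (Mepe, plus strand), chr7:140950244-140950493 (Ifitm5, minus strand) and chr4:137796385-137796634 (Alpl, minus strand, the first of 2 starts in the table). Capitals mark matches on either strand to a RUNX motif (TGTGGT), a homeobox core (TAATTA) or a GC box (GGGCGG).
Mepe: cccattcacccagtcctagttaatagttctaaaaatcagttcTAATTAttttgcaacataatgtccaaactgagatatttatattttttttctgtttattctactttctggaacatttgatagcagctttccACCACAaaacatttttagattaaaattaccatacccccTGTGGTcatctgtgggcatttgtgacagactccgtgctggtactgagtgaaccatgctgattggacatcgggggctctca
Ifitm5: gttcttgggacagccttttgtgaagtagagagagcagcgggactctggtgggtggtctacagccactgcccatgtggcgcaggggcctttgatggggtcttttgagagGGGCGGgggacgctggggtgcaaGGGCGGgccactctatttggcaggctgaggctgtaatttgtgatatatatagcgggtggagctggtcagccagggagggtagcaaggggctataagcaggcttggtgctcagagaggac
Alpl: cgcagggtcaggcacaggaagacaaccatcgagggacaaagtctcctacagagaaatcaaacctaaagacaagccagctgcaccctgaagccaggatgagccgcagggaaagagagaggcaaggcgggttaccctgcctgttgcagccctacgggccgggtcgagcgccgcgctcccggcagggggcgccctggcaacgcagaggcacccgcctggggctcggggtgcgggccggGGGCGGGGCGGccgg
The Mepe window held a homeobox core starting 208 bases before the start site and RUNX motifs at 118 (minus strand) and 80 bases before it. The Ifitm5 window held GC boxes at 142 and 119 bases, and that of Alpl had a pair at 15 and 10 bases that overlap. The windows of Ibsp and Phex, in the same table, held none of the 3. Of all promoters listed there, 14.0% held the RUNX motif, 4.84% the homeobox core and 32.7% the GC box. Promoters of tested genes held them at 10.6%, 2.49% and 57.0%. The shares were 9.30%, 1.64% and 53% of the 1161 promoters of genes at least 2-fold higher in iOB and 13.2%, 4.05% and 47.3% of the 1086 of genes at least 2-fold lower. These cover the genes with an entry in the table, 903 of 1283 and 870 of 1249. A match is a string of letters and not a measured binding site, and these shares have no test.

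Genes that record body position separated the cultures. Posterior Hox genes pattern the trunk, limbs and tail. Of the 15 measured, 11 had enough counts to be tested, 10 of them with at most 3 counts over calvarial-OB. Those 10 and Hoxc13, the other member tested, passed the filter only through iOB, so their direction was fixed by it. The number higher, 11, is no support. Levels of these genes are given as a description. Hoxc12 stood at 18.6, 20.8 and 21.3 CPM in iOB and 20.2, 23.4 and 19.6 CPM in fibroblasts, with 0 counts in calvarial-OB, so it was at least 208-fold higher in iOB (108-fold without calvarial-OB replicate 3). Bounds here rest on 3 counts over the summed calvarial-OB libraries. Hoxc10 was at least 168-fold higher (86.9-fold without calvarial-OB replicate 3), and Hoxb9, with 1 count in calvarial-OB, had 52.9, 48.2 and 51.1 CPM in iOB and 0.125, 0 and 0 CPM in calvarial-OB. Hoxc13 had counts in every library, at 17.9, 17.2 and 21.1 CPM in iOB and 0.249, 0.631 and 0.537 CPM in calvarial-OB (log2 fold change 5.23 ± 0.29, edgeR adjusted p = 1.7e-06). With its direction fixed by the filter, that p-value is no support either. Fibroblast levels of the posterior genes, summed over the 15 in the table, were 284 to 305 CPM, against 189.8 to 199 in iOB and 0.998 to 1.54 in calvarial-OB.

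Anterior Hox genes, of the hindbrain and upper trunk, followed in part. Of 14 tested, 10 rose and 1 fell, and their median was 2.91 (2 lower without calvarial-OB replicate 1). Of these 5 had at most 3 counts over calvarial-OB and passed the filter only through iOB. Hoxb3 stood at 9.36, 11.4 and 12.3 CPM in iOB and 1.12, 1.39 and 1.88 CPM in calvarial-OB (log2 fold change 2.85 ± 0.27, edgeR adjusted p = 3.7e-05), while Hoxa3 overlapped and was not called (log2 fold change -0.11 ± 0.40, edgeR adjusted p = 0.84). Hoxa2, which patterns the hindbrain, was the lower one (log2 fold change -1.39 ± 0.45, edgeR adjusted p = 0.031). Its call ended with DESeq2, with the span offset and without iOB replicate 1 or 2 or calvarial-OB replicate 2 or 3 (log2 fold changes -1.05, -1.37, -1.23 and -1.40).

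Of 21 tested cranial mesenchyme factors 13 were lower in iOB and 3 higher, 2 of these by at least 2-fold, with a median of -1.09 (1 higher without iOB replicate 1, iOB replicate 2 or calvarial-OB replicate 2). The members described here are lower ones. Six2, Alx1 and Zic4 passed the filter only through calvarial-OB, so it fixed their direction. Six2, a factor of skull and suture mesenchyme, stood at 36.4, 36.7 and 32.8 CPM in calvarial-OB with 0 counts in iOB, at least 241-fold lower in iOB (143-fold without iOB replicate 2). Alx1, a homeobox gene of the facial and frontal skeleton, stood at 12.2, 16.2 and 21.3 CPM in calvarial-OB and was also at 0 in iOB, at least 122-fold lower (72.4-fold without iOB replicate 2). Zic1 stood at 0.468, 1.89 and 2.53 CPM in iOB and 33.4, 23.5 and 28.3 CPM in calvarial-OB (log2 fold change -4.11 ± 0.35, edgeR adjusted p = 2.2e-05), and Zic4, next to it in the genome, at 0.624, 0.355 and 0.337 CPM in iOB and 4.87, 5.81 and 5.84 CPM in calvarial-OB (log2 fold change -3.63 ± 0.36, edgeR adjusted p = 4.7e-05). Prrx1, a marker of limb and skull mesenchyme, stood at 334, 300.2 and 322 CPM in iOB and 623, 593 and 818 CPM in calvarial-OB (log2 fold change -1.09 ± 0.14, edgeR adjusted p = 2.4e-04). Alx4 fell by 0.95 (edgeR adjusted p = 0.0018).

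Fetal growth genes were far higher in the calvarial cultures. H19, an imprinted noncoding RNA, stood at 17.8, 23.4 and 15.4 CPM in iOB and 1776, 1318 and 1234 CPM in calvarial-OB (log2 fold change -6.25 ± 0.23, edgeR adjusted p = 2.0e-07). Igf2, its neighbour and a fetal insulin-like growth factor, stood at 17.0, 18.5 and 16.4 CPM in iOB and 556, 538 and 494 CPM in calvarial-OB (log2 fold change -4.93 ± 0.13, edgeR adjusted p = 4.9e-08). No iOB library came near a calvarial-OB library in either gene. Cdkn1c, an imprinted inhibitor of cell division, stood at 11.9, 22.4 and 13.7 CPM in iOB and 159.6, 127 and 131 CPM in calvarial-OB (log2 fold change -3.11 ± 0.22, edgeR adjusted p = 8.4e-06), and Meg3, Rian and Dlk1 of another imprinted cluster fell by 3.04, 2.29 and 1.36 (edgeR adjusted p = 4.7e-05, 8.3e-05 and 0.0027). Igf1 fell by 1.72 and Plagl1, an imprinted zinc finger regulator, by 1.43 (edgeR adjusted p = 8.6e-05 and 3.9e-05). The receptors went the other way, with Igf1r higher by 1.11 and Igf2r by 0.69 (edgeR adjusted p = 5.8e-05 and 0.0016), and so did the imprinted gene Peg10 at 1.43 (adjusted p = 0.0086). Igfbp2, Igfbp4 and Igfbp5, which bind the growth factors outside cells, were not called. Of 24 tested genes 13 were lower and 5 higher, with a median of -0.73.

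Xist, the RNA that silences the X chromosome of female cells, had 2 counts in iOB and 2738 in calvarial-OB, at 42.5, 23.5 and 148 CPM. The ratio was 923 (95% interval 255 to 7625) and 344 without calvarial-OB replicate 3, the highest library. Genes of the Y chromosome were present in all 6 libraries. Uty stood at 36.5, 31.5 and 35.6 CPM in iOB and 21.6, 16.3 and 21.4 CPM in calvarial-OB (log2 fold change 0.80 ± 0.15, edgeR adjusted p = 0.0023) and Ddx3y at 132, 117 and 114 CPM in iOB and 82.8, 67.7 and 93.0 CPM in calvarial-OB (log2 fold change 0.57 ± 0.14, edgeR adjusted p = 0.0083). Both kinds of RNA were thus found in every calvarial-OB library, and almost no Xist in iOB.

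Wnt signalling genes were more often higher than lower, 19 of 40 against 7, with a median of 0.45. Among ligands, Wnt5a stood at 168, 162 and 170.0 CPM in iOB and 40.8, 35.2 and 38.5 CPM in calvarial-OB (log2 fold change 2.12 ± 0.12, edgeR adjusted p = 1.5e-06), and Wnt10b, a bone-promoting ligand, at 32.9, 21.1 and 27.5 CPM in iOB and 4.87, 6.31 and 3.89 CPM in calvarial-OB (log2 fold change 2.45 ± 0.24, edgeR adjusted p = 4.4e-05). The groups did not overlap for either. Wnt4, Wnt7b and Wnt2b rose by 2.93, 2.50 and 1.85 (edgeR adjusted p = 3.9e-05, 5.3e-04 and 7.3e-04). Receptors and inhibitors moved in both directions. Lrp4, the receptor through which sclerostin acts, stood at 354, 250.1 and 281 CPM in iOB and 59.0, 63.6 and 50.3 CPM in calvarial-OB (log2 fold change 2.36 ± 0.16, edgeR adjusted p = 5.9e-06), Fzd9 fell by 2.79 (edgeR adjusted p = 5.6e-04), and the co-receptor genes Lrp5 and Lrp6 were not called, though both were without calvarial-OB replicate 1 (log2 fold changes 0.49 and 0.40). Notum, an enzyme that inactivates Wnt ligands, stood at 23.1, 14.8 and 13.5 CPM in iOB and 0.873, 1.89 and 0.738 CPM in calvarial-OB (log2 fold change 3.94 ± 0.37, edgeR adjusted p = 3.5e-05), and the inhibitors Dkk2 and Kremen1 rose by 2.49 and 1.13 (edgeR adjusted p = 1.2e-05 and 1.4e-04). The secreted inhibitors Sfrp2 and Wif1 fell by 1.53 and 1.14 (edgeR adjusted p = 1.7e-04 and 0.0025), as did Dkk1 and Sost above. Of genes used as readouts of the pathway, Axin2 and Tcf7 were not called (log2 fold change 0.63 ± 0.29, edgeR adjusted p = 0.1 and log2 fold change 0.10 ± 0.27, edgeR adjusted p = 0.78; Axin2 was called without iOB replicate 2, at 0.86), and Apcdd1 rose by 1.62 (edgeR adjusted p = 0.0026).

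BMP and TGF-beta genes leaned to iOB more strongly, with 26 of 40 higher and 8 lower and a median of 0.71. The number lower was 5 without iOB replicate 2 and with the span offset, and 4 without iOB replicate 3. Inhbb, a subunit of activin, stood at 147, 157 and 150.3 CPM in iOB and 13.8, 20.2 and 16.5 CPM in calvarial-OB (log2 fold change 3.17 ± 0.15, edgeR adjusted p = 7.5e-07). The ligands Bmp2 and Bmp4 stood at 13.9, 12.3 and 8.60 CPM in iOB and 3.49, 4.55 and 4.09 CPM in calvarial-OB and at 133, 118 and 131 CPM in iOB and 82.3, 64.4 and 61.5 CPM in calvarial-OB, and rose by 1.52 and 0.88 (edgeR adjusted p = 7.9e-04 and 7.7e-04), with Bmp8a and Bmp7 higher by 1.58 and 2.73 (adjusted p = 1.8e-04 and 0.0033). Grem1 and Fst, secreted antagonists of these ligands, rose too, by 1.83 and 0.75 (adjusted p = 5.7e-06 and 0.001), and Chrdl1, another antagonist, fell by 1.23 (adjusted p = 4.5e-04). Of the other ligands, Gdf10 stood at 20.9, 21.7 and 22.8 CPM in iOB and 171, 152 and 138 CPM in calvarial-OB (log2 fold change -2.82 ± 0.13, edgeR adjusted p = 6.2e-07) and Bmp3, which restrains bone formation, fell by 1.13 (edgeR adjusted p = 3.3e-04). On the TGF-beta side Tgfb3, the accessory receptor gene Tgfbr3 and the ligand-binding Ltbp2 rose by 0.98, 1.42 and 1.29 (adjusted p = 2.0e-04, 3.4e-05 and 1.1e-04). The target genes did not follow the ligands together. Smad7, an inhibitory target, rose by 1.34 (edgeR adjusted p = 4.9e-04), while Id1 fell by 1.16 (adjusted p = 0.0039), a call that ended with the span offset (log2 fold change -0.61).

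**Figure D4:**
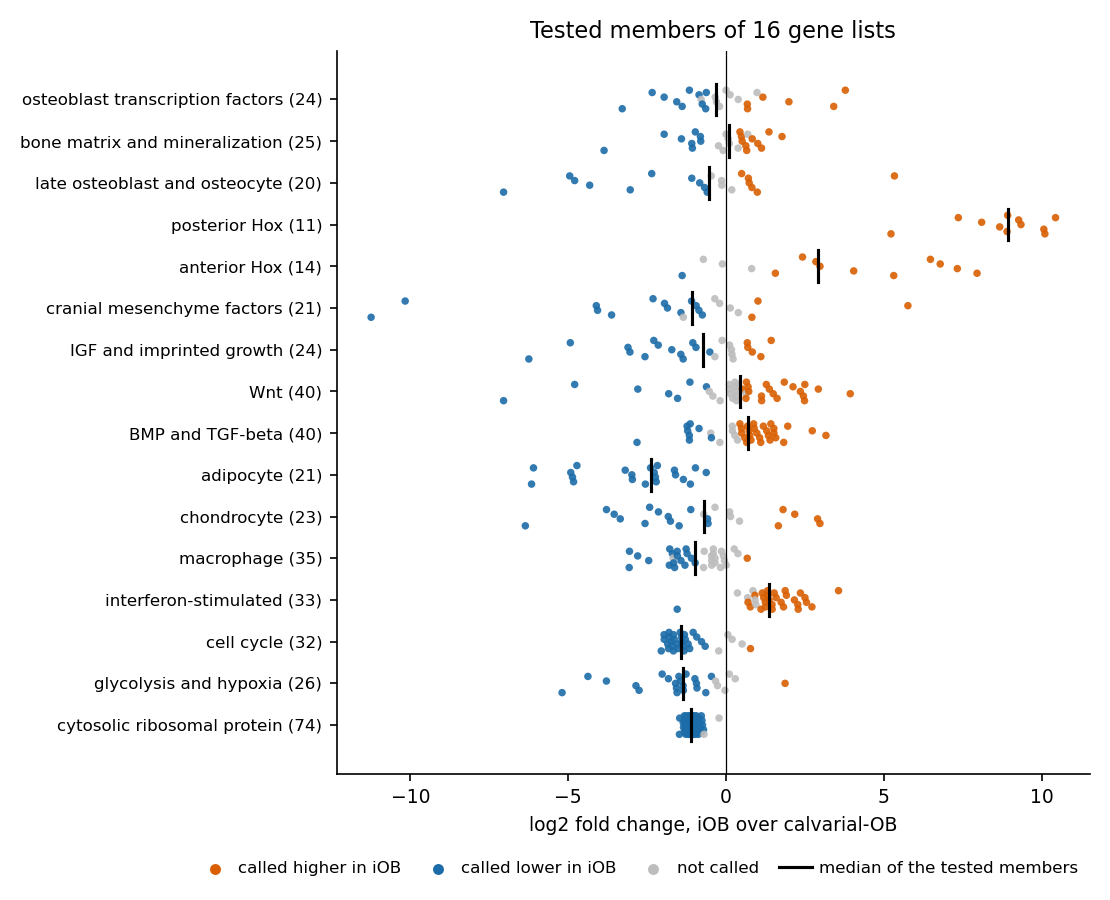
Each dot is one tested member of 16 gene lists (number tested in brackets), at its log2 fold change of iOB over calvarial-OB; orange and blue mark members called higher and lower, grey those not called, and the bar the list's median. The adipocyte and cell cycle medians stand at -2.39 and -1.41, while the osteoblast transcription factor and bone matrix medians stand at -0.32 and 0.10 with members spread to both sides.

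Smaller pathways were mixed. In the FGF list 8 of 17 were higher and 2 lower (1 lower without iOB replicate 1 or 2 or calvarial-OB replicate 3, or with the span offset). The receptor gene Fgfr1 stood at 655, 548 and 609 CPM in iOB and 189.7, 229 and 172 CPM in calvarial-OB (log2 fold change 1.62 ± 0.14, edgeR adjusted p = 2.3e-05), the ligand Fgf1 and the pathway targets Spry4 and Etv4 rose by 2.75, 1.53 and 1.45 (edgeR adjusted p = 2.7e-04, 1.0e-04 and 0.0029), and Fgf18, a ligand of the skull sutures, fell by 1.25 (adjusted p = 0.0096). Among Notch genes the target Heyl stood at 1.87, 2.37 and 1.86 CPM in iOB and 24.0, 20.1 and 21.5 CPM in calvarial-OB (log2 fold change -3.40 ± 0.21, edgeR adjusted p = 2.9e-06), the ligand Jag1 fell by 1.19 and the receptor Notch2 rose by 1.18 (edgeR adjusted p = 1.7e-04 and 2.8e-05). In the Hedgehog list 6 of 11 were higher and 4 lower. Gli1 fell by 1.91 and Gas1, a co-receptor, by 1.28 (edgeR adjusted p = 8.1e-04 and 9.8e-04). The effector genes Gli2 and Gli3 and the receptor Ptch1 rose by 1.30, 1.30 and 0.80 (edgeR adjusted p = 5.5e-04, 5.5e-05 and 0.0088).

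Genes of other cell types were measured in the same libraries, and in bulk RNA fewer cells of a type and less RNA per cell cannot be told apart. All 21 tested adipocyte genes were lower in iOB, 19 of them by at least 2-fold, with a median of -2.39, and the groups did not overlap for any. Adipoq, the adiponectin gene, stood at 12.5, 14.6 and 12.7 CPM in iOB and 52.6, 55.8 and 83.5 CPM in calvarial-OB (log2 fold change -2.27 ± 0.20, edgeR adjusted p = 2.5e-05) with 0 counts in fibroblasts. Fabp4, a fatty acid carrier, stood at 9.20, 13.3 and 11.0 CPM in iOB and 254, 215 and 419 CPM in calvarial-OB (log2 fold change -4.72 ± 0.28, edgeR adjusted p = 2.5e-06), and the lipid droplet gene Plin1 at 1.40, 1.07 and 1.01 CPM in iOB and 30.1, 38.1 and 34.0 CPM in calvarial-OB (log2 fold change -4.86 ± 0.22, edgeR adjusted p = 5.9e-07). Pparg, the regulator of fat cell formation, stood at 7.17, 5.80 and 6.24 CPM in iOB and 24.9, 25.1 and 38.1 CPM in calvarial-OB (log2 fold change -2.21 ± 0.22, edgeR adjusted p = 4.8e-05). Cfd (adipsin) fell by 6.16 (edgeR adjusted p = 2.3e-05; log2 fold change -6.90 without iOB replicate 2), and Cebpa, Lpl and Scd1 fell by 1.13, 1.60 and 2.55 (adjusted p = 1.9e-04, 9.8e-05 and 1.1e-05). Summed over the 23 genes in the table, levels were 853 to 978 CPM in iOB, 3016 to 4568 in calvarial-OB and 544 to 619 in fibroblasts. The sum in iOB was thus below that of calvarial-OB and above that of fibroblasts.

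Macrophage RNA was present in both cultures. Summed over 36 genes the macrophage list reached 3218 to 5137 CPM in iOB and 5073 to 9467 in calvarial-OB, against 56.8 to 119.7 in fibroblasts. Of 35 tested, 17 were lower in iOB and 1 higher, with a median of -0.98. Without calvarial-OB replicate 1 the median was -0.52 and 2 were higher, and none was higher without any other 1 library, with upper-quartile scaling or in the fit of 9 libraries. The pan-macrophage genes Csf1r, Emr1 and Ptprc were not called, except Emr1 with the span offset (log2 fold change -0.75). Csf1r, the receptor for the macrophage growth factor, stood at 113, 153 and 167 CPM in iOB and 302, 143 and 148 CPM in calvarial-OB (log2 fold change -0.45 ± 0.28, edgeR adjusted p = 0.21). Mrc1, the mannose receptor, stood at 83.6, 132 and 151 CPM in iOB and 553, 289.8 and 427 CPM in calvarial-OB (log2 fold change -1.80 ± 0.26, edgeR adjusted p = 4.7e-04), and Fcgr2b, an inhibitory antibody receptor, at 15.4, 27.0 and 24.0 CPM in iOB and 261, 132 and 166 CPM in calvarial-OB (log2 fold change -3.07 ± 0.28, edgeR adjusted p = 3.3e-05). Cd68 and Clec4n fell by 1.70 and 1.66 (edgeR adjusted p = 0.0013 and 4.5e-04), while Lyz2 and Mpeg1 were not called (log2 fold change -0.08 ± 0.22, edgeR adjusted p = 0.79 and log2 fold change 0.01 ± 0.26, edgeR adjusted p = 0.98). In most of these genes calvarial-OB replicate 1 was the highest of the 6 libraries. The complement gene C1qa fell by 0.98 (edgeR adjusted p = 0.018), a call that ended without iOB replicate 1 (log2 fold change -0.83) and with the span offset (-0.60). Of 7 tested osteoclast genes 4 were lower in iOB and 2 higher. Without iOB replicate 1 the number lower was 1. It was 2 without iOB replicate 3, without calvarial-OB replicate 2 or 3 and in the fit of 9 libraries. The number higher was 1 without any 1 iOB library, with upper-quartile scaling, the replicate block or the span offset. Acp5 (tartrate-resistant phosphatase) was not called (log2 fold change 0.15 ± 0.23, edgeR adjusted p = 0.64), Tnfrsf11a, the receptor RANK, fell by 1.56 and Mmp9 rose by 1.97 (edgeR adjusted p = 0.0042 and 0.0021).

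Cartilage genes were mostly lower, 13 of 23 against 5 higher. Sox9, the regulator of cartilage cells, stood at 6.55, 12.7 and 7.59 CPM in iOB and 46.9, 53.4 and 60.9 CPM in calvarial-OB (log2 fold change -2.57 ± 0.23, edgeR adjusted p = 2.9e-05), and Col2a1, the collagen of cartilage, at 54.9, 68.3 and 45.7 CPM in iOB and 192, 457 and 256 CPM in calvarial-OB (log2 fold change -2.42 ± 0.30, edgeR adjusted p = 1.7e-04). Fibroblasts had 527, 691 and 876 CPM of Col2a1, above both cultures. Prg4, the lubricin of joint surfaces and tendon sheaths, stood at 57.2, 77.2 and 72.9 CPM in iOB and 3.24, 12.9 and 9.93 CPM in calvarial-OB (log2 fold change 2.98 ± 0.35, edgeR adjusted p = 1.3e-04), and Col9a2 and Acan rose by 1.66 and 1.81 (edgeR adjusted p = 7.3e-05 and 0.0065; log2 fold change of Acan 1.10 without iOB replicate 1). Col10a1, the collagen of hypertrophic cartilage, was not called (log2 fold change 0.12 ± 0.47, edgeR adjusted p = 0.86). In the tendon list 6 of 10 were higher and 3 lower (1 lower without iOB replicate 1 or 3 or calvarial-OB replicate 2 or 3). Fmod and Tnc rose by 1.11 and 1.45, and Tnmd, a marker of mature tendon cells, fell by 2.13 (edgeR adjusted p = 9.4e-05, 4.1e-04 and 1.7e-05).

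Of 9 tested keratinocyte and epithelial genes 5 were higher in iOB and 1 lower (3 higher with DESeq2, with a filter of 10 counts or without calvarial-OB replicate 2 or 3; none lower without iOB replicate 3 or with the span offset). Of the 9, 2 had at most 3 counts over calvarial-OB, Dsp among them. These 2 and Dsc2 passed the filter only through iOB, so their direction was fixed by it and the number higher is no support. Dsp, the desmosome plaque protein, stood at 29.5, 22.8 and 19.7 CPM in iOB and 0, 0 and 0.134 CPM in calvarial-OB, with 2 counts in calvarial-OB, making it 370.1 times higher (95% interval 102 to 3064; without calvarial-OB replicate 3 it was at least 128-fold). Dsc2, a desmosome cadherin, stood at 7.02, 6.75 and 6.92 CPM in iOB and 0, 0.126 and 0.201 CPM in calvarial-OB (log2 fold change 5.60 ± 0.46, edgeR adjusted p = 1.7e-05; 6.44 without calvarial-OB replicate 3). The keratinocyte genes Krt5 and Epcam were at or near 0 in both cultures. Of 6 tested skeletal muscle genes 2 were lower and none higher (1 higher in the fit of 9 libraries). Myh8 passed the filter only through calvarial-OB, so it could only come out lower. Tnnt1, a troponin gene, fell by 2.76 (edgeR adjusted p = 0.0045). Myh8, the perinatal myosin, stood at 30.9, 29.8 and 55.9 CPM in calvarial-OB with 0 counts in iOB, at least 296-fold lower in iOB (176-fold without iOB replicate 2, and 205-fold and 212-fold without replicates 1 and 3). Myh1 and Myh8 are close in sequence, and the muscle regulator Myog was near 0 in both cultures. Of 11 tested neural and glial genes 5 were lower in iOB and 1 higher, with a median of -1.04 (-0.68 without calvarial-OB replicate 1). The glial genes S100b and Sox10 fell by 2.02 and 1.83 (edgeR adjusted p = 2.5e-05 and 0.0031). The higher one, the adhesion gene Ncam1, stood at 307, 278 and 310.2 CPM in iOB and 109, 106 and 83.8 CPM in calvarial-OB (log2 fold change 1.59 ± 0.13, edgeR adjusted p = 2.1e-05), and the sum over the 15 genes in the table was 364 to 401 CPM in iOB and 252 to 308 in calvarial-OB. Of 5 tested endothelial genes 3 were lower and none higher. They were the transcription factor gene Erg, at 0, 0.592 and 0.506 CPM in iOB and 8.86, 9.85 and 10.1 CPM in calvarial-OB (log2 fold change -4.60 ± 0.45, edgeR adjusted p = 4.7e-05; -5.22 without iOB replicate 2), and the VEGF receptor genes Flt1 and Kdr, which fell by 1.76 and 1.64 (edgeR adjusted p = 5.5e-04 and 0.03). Erg passed the filter only through calvarial-OB, so its direction was fixed by it. The call of Kdr ended without iOB replicate 2 or 3 or calvarial-OB replicate 1 (log2 fold changes -1.44, -1.52 and -0.96). The sum over 11 endothelial genes was 8.27 to 12.9 CPM in iOB and 31.3 to 34.6 in calvarial-OB, and Pecam1 and Cdh5 had too few counts to test.

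Proliferation genes were lower in iOB, 27 of 32 with 1 higher and a median of -1.41. Mki67 stood at 35.4, 54.2 and 44.5 CPM in iOB and 110.0, 160.4 and 156 CPM in calvarial-OB (log2 fold change -1.66 ± 0.19, edgeR adjusted p = 1.2e-04) and Top2a, the topoisomerase of dividing cells, at 30.7, 33.3 and 28.7 CPM in iOB and 65.0, 115 and 120.3 CPM in calvarial-OB (log2 fold change -1.69 ± 0.22, edgeR adjusted p = 2.2e-04). Fibroblasts had 165, 209.7 and 244 CPM of Mki67. Of inhibitors of division, Cdkn2a, which encodes p16 and ARF, stood at 141, 136 and 137 CPM in iOB and 32.4, 40.0 and 31.1 CPM in calvarial-OB (log2 fold change 2.00 ± 0.13, edgeR adjusted p = 4.1e-06), with 47.1, 46.7 and 49.8 CPM in fibroblasts. The p53 targets Mdm2, Ccng1, Trp53inp1 and Sesn2 rose by 1.19, 1.46, 1.68 and 1.37 (edgeR adjusted p = 8.1e-05, 3.8e-04, 9.4e-05 and 3.8e-05). Cdkn1a, the p21 gene, was not called (log2 fold change 0.30 ± 0.12, edgeR adjusted p = 0.064), but was called without calvarial-OB replicate 1 (log2 fold change 0.41), with the span offset and in the fit of 9 libraries. Gdf15, another p53 target, fell by 2.59 (edgeR adjusted p = 0.0085; log2 fold change -1.48 without calvarial-OB replicate 1). The p53 list as a whole had 7 of 15 higher and 4 lower.

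Glycolysis and hypoxia genes were lower too, 20 of 26 with 1 higher (3 higher without calvarial-OB replicate 1) and a median of -1.35. Ldha, which makes lactate, stood at 197, 207 and 194 CPM in iOB and 702, 737 and 677 CPM in calvarial-OB (log2 fold change -1.82 ± 0.11, edgeR adjusted p = 2.6e-06), and Pgk1, a glycolytic kinase, at 181, 178 and 192 CPM in iOB and 586, 522 and 559.6 CPM in calvarial-OB (log2 fold change -1.60 ± 0.11, edgeR adjusted p = 6.1e-06). Fibroblasts had 890.2, 821 and 933 CPM of Ldha, above both. Slc16a3, the lactate exporter, stood at 1.87, 3.08 and 2.36 CPM in iOB and 85.5, 39.5 and 31.2 CPM in calvarial-OB (log2 fold change -4.37 ± 0.43, edgeR adjusted p = 4.7e-05), and Ndufa4l2 and Car9, induced by low oxygen, fell by 5.19 and 3.79 (edgeR adjusted p = 3.1e-06 and 1.0e-04). Adm, also a hypoxia target, was the one higher, by 1.87 (adjusted p = 6.8e-05), and Vegfa was not called (log2 fold change 0.11 ± 0.25, edgeR adjusted p = 0.76; adjusted p = 0.0033 without calvarial-OB replicate 1, the lowest of 0.0033 to 0.95 over all alternatives).

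Interferon-stimulated genes were higher in iOB, 27 of 33 with 1 lower (32 and 1 without calvarial-OB replicate 1) and a median of 1.37. Irf7, a regulator of the interferon response, stood at 36.8, 77.5 and 62.9 CPM in iOB and 15, 6.94 and 5.64 CPM in calvarial-OB (log2 fold change 2.72 ± 0.37, edgeR adjusted p = 3.2e-04). Fibroblasts had 5.44, 8.76 and 4.70 CPM of Irf7. Isg15, a ubiquitin-like protein, rose by 2.55 (edgeR adjusted p = 0.0012; log2 fold change 3.37 without calvarial-OB replicate 1), and Oasl2, Usp18 and the RNA sensor Ddx58 rose by 2.50, 2.36 and 1.37 (adjusted p = 1.1e-04, 4.5e-04 and 5.5e-05). Ifi27l2a was the one lower, by 1.55 (adjusted p = 0.0032). The lowest of the 3 iOB libraries in this list, replicate 1, was also the lowest of them in macrophage RNA, and calvarial-OB replicate 1 was the highest of its group in both. Between the groups the interferon sum was higher in iOB, at 953 to 1530 CPM against 425 to 691 in calvarial-OB. The macrophage sum was mostly lower in iOB, at 3218 to 5137 CPM against 5073 to 9467. The part of macrophages in this list was not tested. Of 17 antigen presentation genes 8 were higher and none lower (14 higher without calvarial-OB replicate 1 and 5 without replicate 2), with Tap1 and Tap2 higher by 1.12 and 0.93 (edgeR adjusted p = 0.0013 and 0.0016). Cytokine and acute phase genes held some wide gaps in both directions. The chemokine genes Cxcl14 and Ccl6 stood at 712, 471 and 483 CPM in iOB and 33.2, 40.9 and 27.4 CPM in calvarial-OB (log2 fold change 4.04 ± 0.22, edgeR adjusted p = 1.4e-06) and at 105, 160.1 and 154 CPM in iOB and 39.5, 15.8 and 30.9 CPM in calvarial-OB (log2 fold change 2.28 ± 0.29, edgeR adjusted p = 2.2e-04), and Hp, the haptoglobin of fat and liver, at 9.82, 12.5 and 12.7 CPM in iOB and 202, 225 and 241 CPM in calvarial-OB (log2 fold change -4.25 ± 0.15, edgeR adjusted p = 2.0e-07). Adipocyte RNA, which moved the same way as Hp, was higher in calvarial-OB, as given above; its part in Hp was not tested.

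**Figure D5:**
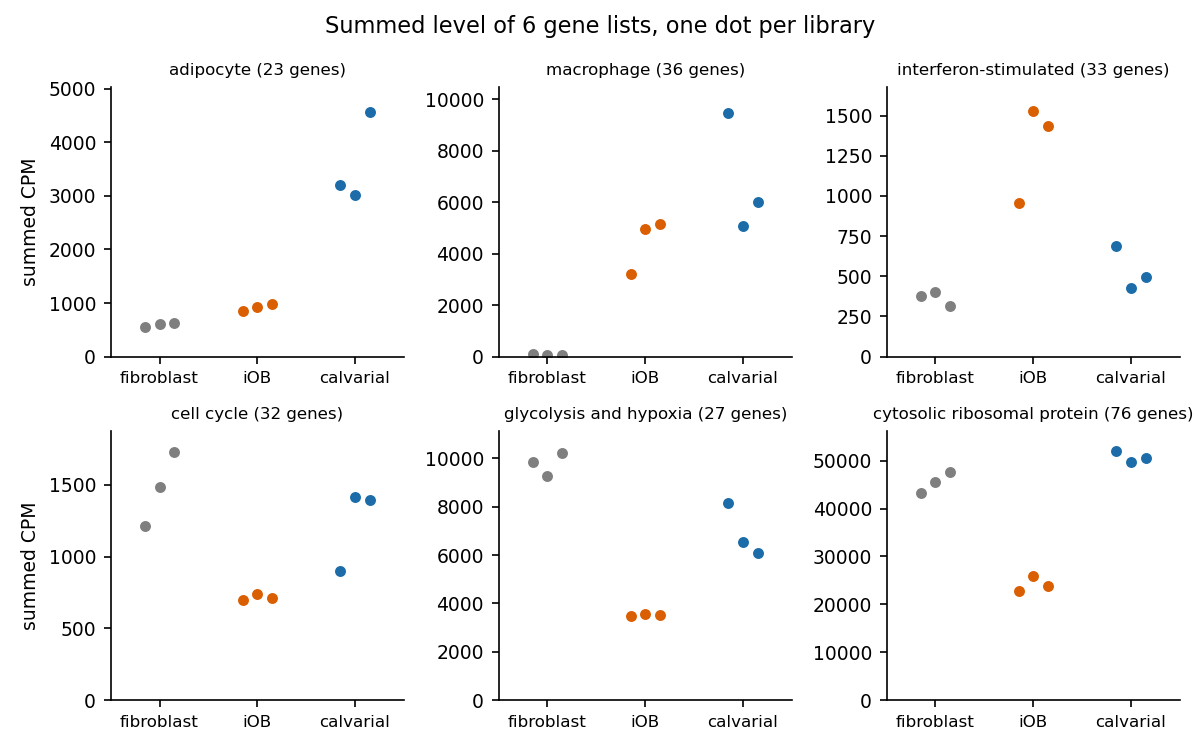
Summed levels (CPM, linear axes from 0) of 6 gene lists, one dot per library of fibroblasts, iOB and calvarial-OB. The adipocyte, cell cycle, glycolysis and ribosomal sums of all 3 iOB libraries lie below those of every calvarial-OB library, the interferon sums lie above them, and the macrophage sums overlap, with the highest iOB library at 5137 CPM and the lowest calvarial-OB library at 5073.

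Genes of cytosolic ribosomal proteins, a list added after the values were seen, were lower almost throughout, 72 of 74 with none higher and a median of -1.10. For all 74 every iOB library lay below every calvarial-OB library. Rps12 stood at 354, 421 and 378 CPM in iOB and 1095, 1062 and 1031 CPM in calvarial-OB (log2 fold change -1.47 ± 0.11, edgeR adjusted p = 1.3e-05) and Rpl38 at 204, 215 and 193 CPM in iOB and 525, 486 and 546 CPM in calvarial-OB (log2 fold change -1.35 ± 0.11, edgeR adjusted p = 1.9e-05). Many have processed copies elsewhere in the genome, so single values are uncertain. These genes are short, and with the span offset the median was -0.75 and 72 were still lower. Fibroblast sums were 43253 to 47723 CPM, close to the 49689 to 51926 of calvarial-OB, against 22791 to 25881 in iOB. Genes of the amino acid response went up more often than down, 10 of 27 against 2 (2 higher without iOB replicate 1 and 6 without iOB replicate 3; 4 lower with the replicate block or without calvarial-OB replicate 3).

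Other matrix genes also set the cultures apart. Among 29 collagens 7 were higher and 11 lower with a median of -0.10. Col22a1, of tissue junctions, stood at 4.37, 9.59 and 10.5 CPM in iOB and 124, 120.3 and 78.9 CPM in calvarial-OB (log2 fold change -3.72 ± 0.29, edgeR adjusted p = 1.4e-05), and Col15a1, of basement membranes, fell by 2.33 (edgeR adjusted p = 2.5e-05). Col3a1, the reticular collagen, stood at 4254, 5080.4 and 4409 CPM in iOB and 10037, 10795 and 10029 CPM in calvarial-OB (log2 fold change -1.17 ± 0.12, edgeR adjusted p = 5.9e-05). Col12a1, a collagen that decorates fibrils, and Loxl2, a collagen crosslinker, stood at 4631, 4641 and 4681 CPM in iOB and 2153, 2179 and 2417 CPM in calvarial-OB (log2 fold change 1.05 ± 0.11, edgeR adjusted p = 6.4e-05) and at 1809, 1318 and 1461 CPM in iOB and 314, 385 and 431 CPM in calvarial-OB (log2 fold change 2.02 ± 0.16, edgeR adjusted p = 1.6e-05). Thbs1, thrombospondin, had the largest gain in CPM, at 8801, 9725 and 9904 CPM in iOB and 2864, 2898 and 3433 CPM in calvarial-OB (log2 fold change 1.63 ± 0.12, edgeR adjusted p = 1.2e-05), and stood at 21188, 22471 and 18644 CPM in fibroblasts. Of 23 proteases and inhibitors 10 were higher and 6 lower (3 lower without iOB replicate 3). The plasminogen activators split: Plat rose by 2.26 and Plau fell by 2.06 (edgeR adjusted p = 2.9e-06 and 6.4e-05). Of 26 fibroblast genes 16 were lower and 3 higher (10 lower without iOB replicate 1), with Thy1 and the microfibril gene Mfap4 down by 1.26 and 4.03 and Fbln1 up by 1.91 (adjusted p = 2.4e-05, 2.7e-05 and 2.7e-05).

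Other lists were mixed or held few calls. Of 29 secretory pathway genes 6 were higher and 4 lower (10 and 2 with the span offset, 7 lower without calvarial-OB replicate 1), and of 20 cholesterol synthesis genes 1 was higher and 4 lower (11 lower without calvarial-OB replicate 1, none higher without any 1 iOB library). Of 17 immediate early genes, which respond within minutes to handling and serum, none was higher and 5 lower, while 6 were higher without calvarial-OB replicate 1 and 2 or 3 were lower without any 1 iOB library. Smooth muscle genes had 5 of 14 higher and 1 lower (5 lower without calvarial-OB replicate 1), and Acta2, the smooth muscle actin, was not called (log2 fold change -0.34 ± 0.20, edgeR adjusted p = 0.21). Among 14 hormone and vitamin receptors 5 were higher and 3 lower. Pth1r, the parathyroid hormone receptor of osteoblasts, overlapped at 224, 163 and 176 CPM in iOB and 217, 188 and 131 CPM in calvarial-OB (log2 fold change 0.07 ± 0.19, edgeR adjusted p = 0.78), while Thrb and Lepr, receptors for thyroid hormone and leptin, rose by 1.84 and 1.44 (edgeR adjusted p = 1.2e-04 and 0.0036).

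The widest gaps among well-expressed genes included members of none of these programs. Gzmd, Gzme and F5 passed the filter only through iOB. It fixed their direction, and the adjusted p of F5 is no support. On the higher side, Gzmd and Gzme, granzyme genes known from lymphocytes and trophoblast, stood at 95.6, 79.1 and 79.8 CPM in iOB and 0, 0 and 0.0671 CPM in calvarial-OB and at 182, 156 and 165 CPM in iOB and 0.374, 0.631 and 1.07 CPM in calvarial-OB. Gzmd had 1 count in calvarial-OB and was 2602 times higher in iOB (95% interval 466 to 102819; at least 448-fold without calvarial-OB replicate 3), and the pair is near-identical in sequence, so their reads may be shared. F5, coagulation factor V, stood at 148, 99.2 and 117 CPM in iOB and 0.125, 0.253 and 0.537 CPM in calvarial-OB (log2 fold change 8.37 ± 0.31, edgeR adjusted p = 2.1e-07; 9.21 without calvarial-OB replicate 3), and Parm1, a mucin-like membrane protein, at 184, 173 and 192 CPM in iOB and 3.24, 3.41 and 2.55 CPM in calvarial-OB (log2 fold change 5.92 ± 0.16, edgeR adjusted p = 4.9e-08). Slc26a7, an anion transporter, stood at 117, 86.0 and 89.6 CPM in iOB and 2.37, 2.02 and 2.15 CPM in calvarial-OB (log2 fold change 5.48 ± 0.19, edgeR adjusted p = 2.0e-07) with 0.291, 0.146 and 0.428 CPM in fibroblasts, and Gpr116, an adhesion receptor, at 142, 97.6 and 109 CPM in iOB and 6.11, 3.28 and 6.58 CPM in calvarial-OB (log2 fold change 4.41 ± 0.25, edgeR adjusted p = 1.8e-06) with 0.68, 1.61 and 0.513 CPM. These 2 were near absent in fibroblasts, whereas Parm1 and the matrix gene Hmcn1 were already there, Hmcn1 at 491, 326 and 195 CPM against 115, 144 and 125 CPM in iOB and 4.37, 5.05 and 6.85 CPM in calvarial-OB (log2 fold change 4.52 ± 0.19, edgeR adjusted p = 4.7e-07). On the lower side, Gfra2, a co-receptor for neurturin, stood at 0.78, 0.592 and 1.35 CPM in iOB and 77.0, 44.4 and 41.8 CPM in calvarial-OB (log2 fold change -5.94 ± 0.37, edgeR adjusted p = 3.1e-06), and Pgm5, an adhesion protein of muscle related to phosphoglucomutase, at 1.56, 1.30 and 1.35 CPM in iOB and 97.3, 68.3 and 71.0 CPM in calvarial-OB (log2 fold change -5.80 ± 0.23, edgeR adjusted p = 2.9e-07).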

How the data were processed

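RNA of 6 libraries, 3 iOB and 3 calvarial-OB, was compared; poly-A RNA was purified, per the labels' protocols. The authors deposited whole-number counts per gene symbol. Of tools, the submitters' processing notes list Bowtie2, STAR 2.4.2a, R 3.2.2 and DESeq2, with build mm9, and assign them no role; how reads were counted, with which annotation and strand, is not given in the sources used here. Columns named OB in the table were read as the calvarial-OB libraries. The closing section also uses the relative methylation score, a group mean in 100 bp windows of the authors' choosing, that they deposited.

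Counts were fitted with edgeR 4.0.16 (R 4.3.3, limma 3.58.1): filterByExpr, TMM scaling, the quasi-likelihood test (glmQLFit, glmQLFTest) with group as the only term, and Benjamini-Hochberg adjustment over all 13260 tested genes. The biological coefficient of variation was 16.5%, and Rn45s, precursor ribosomal RNA, took 5.08% to 5.77% of the counts of each library. The SE is the absolute log2 fold change over the square root of the F statistic. Genes at 0 counts in a group are given a lower bound against 3 counts over that group, and genes with 1 to 3 counts a ratio with a 95% Clopper-Pearson interval; without molecular identifiers these cover counting error only. On simulated counts for 13260 genes the test recovered 94 of 100 genes changed 2-fold and 100 of 100 changed 4-fold, with 22 calls among unchanged genes. The changed genes were all drawn from those at or above the median level, so recovery of weaker genes was not simulated. Counts were drawn independently, with the dispersions fitted to these libraries. Tables were handled in Python 3.11.15 with numpy 2.4.6, pandas 2.3.3, scipy 1.17.1 and matplotlib 3.10.9. Alternatives were DESeq2 1.42.0, other scalings and filters, a fit of all 9 libraries, the replicate number as a block, Rn45s left out, each library left out and, added after the data were seen, an offset for gene span (RefSeq spans for 99.6% of tested genes). Promoters came from RefSeq, GRCm38.p6.

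The members, the gene lists and the rule for named genes were chosen with earlier results of these data known, so no list count is independent evidence. The rule took the 10 higher and 10 lower well-expressed genes with the largest fold changes, up to 4 members of each list by adjusted p, the defining markers, the 6 higher and 6 lower genes with the largest difference in CPM, and list genes at 0 in a group. Of 210 genes named, 122 came from it; the other 88 were picked after their values were seen.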

Additional observations from a re-analysis of the deposited data

How the results depend on the processing

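All numbers of called genes stayed within 1.5 times those reported under every alternative run. Genes called ranged from 4341 to 6900 when 1 library was left out (2291 to 3582 higher, 2045 to 3318 lower), and those called at 2-fold or more from 2332 to 2735. Genes whose groups did not overlap numbered 8124 to 9200 with 5 libraries, since fewer values have to be ordered. DESeq2 called 5427 genes, the fit of all 9 libraries 6561, and the fit without a filter beyond 1 count 6167. Upper-quartile scaling moved the median log2 fold change of all tested genes from -0.03 to -0.11 and the share of calls that were higher from 51.2% to 43.4%, with 2604 higher and 3392 lower, and no named gene called in either fit changed sign. The span offset gave 5238 calls. Of 180 called genes named in the text, 174 were called under every alternative and 6 lost the call in at least 1. Of 1320 list counts recomputed, 89 moved by more than 1.5 times. For the methylation windows the mean difference was -0.184 where the median was -0.27. In autosomal windows the mean and median were -0.246 and -0.285, and in X chromosome windows 0.0827 and 0.23. The cause was not tested.

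The replicate numbers gave no sign of paired libraries: deviations from the group means of same-numbered libraries correlated at -0.14, -0.12 and -0.07 across genes, and no library correlated best with its own number. Such deviations cancel within a group of 3, so these correlations cannot exclude a pairing. With the replicate number as a block 5216 genes were called, 2716 higher and 2500 lower, and 2499 at 2-fold or more. No sequencing date or other batch within a group is given in the labels, and dataset 2 holds the calvarial-OB libraries only, so no within-batch value could be had. At 5646299 to 15023771 counts per library, differences of genes with a few counts were not detectable at this depth.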

Other observations

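The same 3 groups were profiled for DNA methylation, by sequencing of DNA enriched with methyl-CpG-binding proteins. The authors' deposited group means covered 9743 windows of 100 bp that they had selected. The windows are labelled DMR (differentially methylated regions) of these 3 groups, so the shares below do not describe the genome at large. The means carry no spread per library, and their depth is unknown. The selection test is not given in the sources used here, so the values are described without a test. The mean relative methylation score was lower in iOB than in calvarial-OB in 6324 windows (64.9%), higher in 1194 and equal in 2225, with a median difference of -0.27. By at least 0.2 it was lower in 6045 windows.

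In the 7726 autosomal windows the iOB score was lower in 5676 and higher in 67, and it was listed at 0 in 98.4% of windows, against 25.8% for calvarial-OB. In the 1852 windows on the X chromosome the iOB score was higher in 1127 and lower in 520. Median X scores were 0.0467 in fibroblasts, 0.325 in iOB and 0.095 in calvarial-OB, so the iOB median lay above both others on the X chromosome and at 0 over all windows. Mean X scores lay closer together, at 0.182 in fibroblasts, 0.224 in iOB and 0.141 in calvarial-OB. The score was 0 in 37.7% of X windows in iOB and 35.3% in calvarial-OB. Xist, measured in the RNA libraries, had 2 counts in iOB and was present in every calvarial-OB library. A relation between Xist RNA and the X scores was not tested.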
